A study of Mus musculus with 22 samples.

Results

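The genes described here are 35 named components of the DNA replication machinery and its G1/S control, listed by name: the 6 subunits of the MCM helicase, the licensing factors Orc1, Orc6, Cdc6 and Cdt1, origin-firing factors, DNA polymerase alpha-primase, the sliding clamp and its partners, nucleotide synthesis enzymes, chromatin factors of S phase, cyclin E and E2f1. Of these, 33 were measured among the 22180 genes with a probe of their own. Rfc4 and Ccne2 were read only by probes that also carry another gene's symbol and were not analysed here.

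The arrays measured RNA of hematopoietic stem cells (HSCs) of wild-type C57BL/6J mouse fetal liver at E14.5 (embryonic stage). Cells of these livers grew on OP9-DL1, a mouse bone marrow stromal line that displays the Notch ligand Delta-like 1, and the SLAM LSK fraction, a surface phenotype that enriches HSCs, was sorted by flow cytometry after culture. The groups were gamma-secretase inhibitor (GSI, 1 µM) for 10 h (4 arrays), the solvent DMSO for 10 h (4 arrays), GSI for 4 h (7 arrays) and DMSO for 4 h (7 arrays), and each biological replicate was a pair of 1 GSI and 1 DMSO sample. All 22 samples therefore shared genotype, strain, age and stroma, and no array of uncultured cells is part of the comparison. Whether the pairs were single embryos or pools is not given in the sources used here.

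A cell copies its genome once per division. The origin recognition complex, Cdc6 and Cdt1 load the MCM helicase on DNA in G1, Cdc45 and the GINS complex join it when an origin fires, and polymerase alpha-primase lays down the primers that the PCNA-clamped polymerases extend. Most of these genes are known targets of E2F transcription factors, which cyclin E with its kinase releases from the retinoblastoma protein at the G1/S border. Fetal liver HSCs are known to divide actively, while most adult bone marrow HSCs are quiescent. Gamma-secretase cuts activated Notch receptors free of the membrane, so its inhibitor blocks Notch target genes such as Hes1.

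The promoter sequences below are shown because they carry E2F-type words, which a minority of these genes held. In RefSeq windows of the GRCm38.p6 assembly, 250 bases before to 50 bases after each start, the words TTTCCCGC, TTTCGCGC, TTTGCCGC and TTTGGCGC were searched on both strands; hits of TTTCGCGC and TTTGGCGC on opposite strands can overlap. At least 1 word lay in 12 of the 35 windows of member genes (34.3%), against 744 of 32851 windows of all genes (2.26%). The 12 genes were Mcm3, Mcm5, Mcm6, Mcm7, Orc1, Cdc6, Cdt1, Gins3, Pola1, Rfc3, Lig1 and Uhrf1, out of 30 members with a window. The CCAAT box, CCAAT on either strand, was in 60.0% of member windows and in 37.4% of all windows, and the cell cycle homology word TTTGAA was in 11.4% and 17.9%. A match is a string of letters, not a measured binding site. The following 80-base stretches lie wholly upstream of the start, written 5′ to 3′ on the gene's strand with the E2F-type words in capitals, for the 5 members with an upstream word that rose between the times under both treatments (see the values for each gene further on).
Mcm6 promoter: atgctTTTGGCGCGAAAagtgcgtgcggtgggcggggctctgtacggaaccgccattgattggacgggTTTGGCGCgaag
Mcm7 promoter: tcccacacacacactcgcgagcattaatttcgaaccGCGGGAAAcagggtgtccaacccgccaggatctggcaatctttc
Mcm5 promoter: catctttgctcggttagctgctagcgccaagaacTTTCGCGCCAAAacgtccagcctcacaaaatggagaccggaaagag
Cdc6 promoter: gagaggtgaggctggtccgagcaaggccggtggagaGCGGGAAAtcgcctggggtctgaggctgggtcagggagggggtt
Pola1 promoter: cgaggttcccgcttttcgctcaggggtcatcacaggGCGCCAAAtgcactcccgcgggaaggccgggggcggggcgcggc
These stretches lie at Mcm6 chr1:128359741-128359820 (minus strand), Mcm7 chr5:138172005-138172084 (minus strand), Mcm5 chr8:75109322-75109401 (plus strand), Cdc6 chr11:98907977-98908056 (plus strand) and Pola1 chrX:93632250-93632329 (minus strand). In Mcm6 the first capital run holds 2 overlapping words and a second run holds 1 more, and in Mcm5 the single run holds 2 overlapping words. Mcm7, Cdc6 and Pola1 each hold 1 word in the stretch shown.

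Before the results, 3 features of the arrays bear on them. The deposited values had array medians of 4.45 to 4.52 at 10 h and 5.03 to 5.12 at 4 h, so the times were compared after quantile normalization of all 22 arrays together, while GSI was compared with DMSO on the deposited values within pairs. The sample descriptions carry 2 codes at 10 h and 3 at 4 h, with none spanning both times, so time and description code cannot be told apart. The pair numbered 6 at 4 h stood apart for these genes, as described with the cultures, and the counts, the medians and the time differences of the largest risers, Pcna and Mcm2 are also stated there without it. As a check of the treatment, Hes1 fell by 1.36 on the log2 scale (SE 0.117, limma, adjusted p = 4.7e-05) with GSI at 10 h and by 0.97 (SE 0.0884, adjusted p = 0.000199) with GSI at 4 h. The other 5 Notch targets of the list (Nrarp, Dtx1, Hey1, Heyl and Hes5) were not called at either time, with differences of -0.25 (Nrarp) to 0.07 (Heyl) at 10 h. Of the sorted phenotype, Kit had deposited log2 levels of 8.65 to 9.75 at 10 h and 9.74 to 10.27 at 4 h. Slamf1, which encodes the SLAM marker CD150, was at 4.48 to 5.24 at 10 h, near or above the array medians, and at 3.40 to 4.64 at 4 h, below them, and Ly6a had no probe of its own. Of HSC markers outside the SLAM LSK label, Cd34 was at 9.40 to 10.44 at 10 h and 9.63 to 11.45 at 4 h. Procr was at 6.22 to 7.33 at 10 h and 8.56 to 9.96 at 4 h. All these levels are on the deposited scale, whose array medians were lower at 10 h.

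After joint normalization, replication genes were higher at 10 h than at 4 h of culture under both treatments. With GSI, 24 of the 33 members rose and none fell (limma, Benjamini-Hochberg adjusted p under 0.05 over all genes), where 36.1% of all genes were called, 19.1% higher and 17% lower. With DMSO, 21 of 33 rose and none fell, where 33.9% of all genes were called, 18.7% higher and 15.2% lower. The median member was higher by 0.55 with GSI and by 0.48 with DMSO on the log2 scale, against medians over all genes of 0.03 and 0.04. In 20 members the 4 arrays at 10 h all lay above the 7 arrays at 4 h with GSI (12.7% of all genes did so), and in 16 members with DMSO (11.8% of all genes). The size and sign of the change depended on the scale: in the deposited values all genes together were lower at 10 h, by a median of 0.42 with GSI and 0.41 with DMSO, and there 21 and 17 members were above 0, while 33 and 32 members lay above the median of all genes on each of the 4 scales tried (joint quantile, cyclic loess, median centring and deposited), with Cdt1 the exception in DMSO. On the deposited scale 4 members were called higher with GSI (Pola1, Pcna, Chaf1a and Ccne1) and 3 with DMSO (Mcm5, Pola1 and Fen1), while Orc6 was called lower with GSI and Cdt1 with DMSO. Of all 22180 genes on that scale, 470 were called higher and 14425 lower with GSI. With DMSO 464 were called higher and 12884 lower. The values by role that follow are on the joint scale. In these bulk samples a change in the share of cells in S phase and a change in RNA per cell cannot be told apart.

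**Figure D1:**
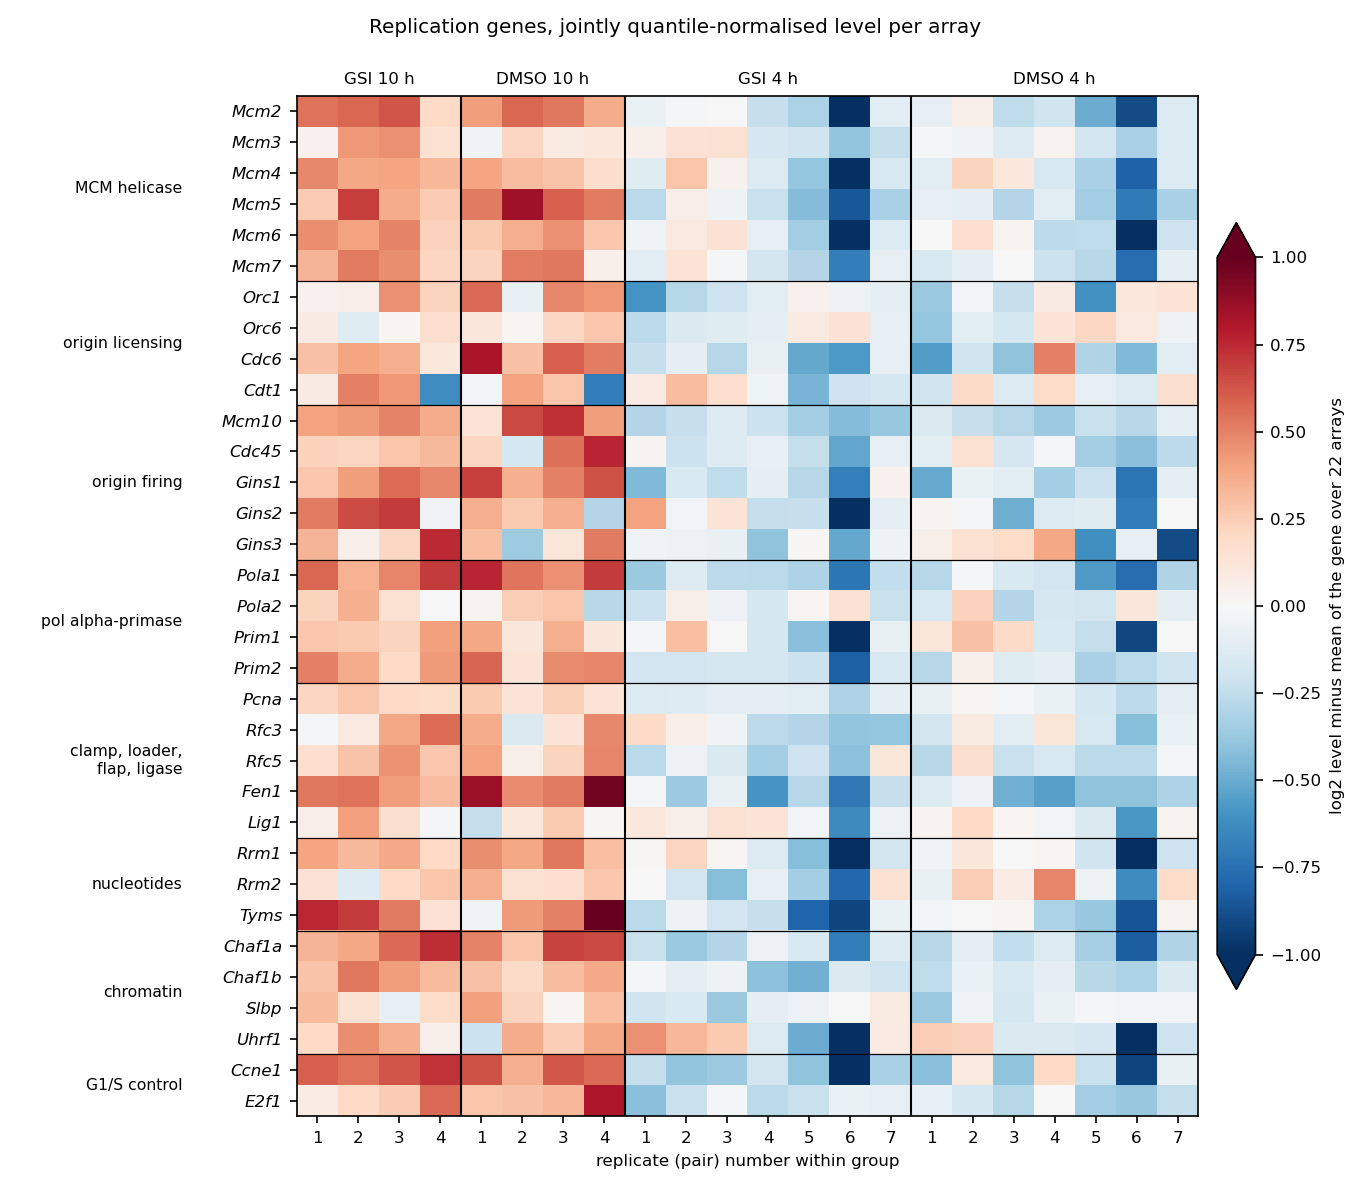
Log2 level of each of the 33 replication genes (rows, grouped by role) on each of the 22 arrays (columns, by group and pair number) after joint quantile normalization, as the difference from the gene's mean over all arrays, with colours capped at 1. On this scale the 10 h columns are mostly above the gene means, the 4 h columns mostly below, and pair 6 at 4 h is the lowest 4 h column under both treatments.

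All 6 helicase subunits, which form the ring that unwinds DNA ahead of the fork, were higher at 10 h: 6 of 6 rose with GSI and 5 of 6 with DMSO. Mcm2, 1 of these subunits, had log2 levels of 9.16, 9.19, 9.24 and 8.82 with GSI at 10 h, against a lowest, median and highest of 7.52, 8.50 and 8.62 with GSI at 4 h. With DMSO the levels were 9.03, 9.19, 9.14 and 8.99 at 10 h, against 7.72, 8.42 and 8.66 at 4 h. The groups did not overlap under either treatment, and the difference was 0.75 (SE 0.191, 95% interval 0.34 to 1.16) with GSI and 0.76 (SE 0.163, 95% interval 0.41 to 1.11) with DMSO (limma, adjusted p = 0.00946 and 0.00436). Mcm5 had 8.94, 9.26, 9.02 and 8.94 with DMSO at 10 h, against 7.71, 8.13 and 8.34 at 4 h. Every 10 h array of Mcm5 was above every 4 h array, by 0.90 (SE 0.136, 95% interval 0.61 to 1.20) with DMSO (limma, adjusted p = 0.000606) and by 0.69 (SE 0.162) with GSI (adjusted p = 0.00608). Mcm4, Mcm6 and Mcm7 rose under both treatments, by 0.62, 0.60 and 0.56 with GSI and by 0.46, 0.56 and 0.56 with DMSO. Mcm3 rose by 0.36 (SE 0.128) with GSI, and its difference with DMSO was 0.20 (SE 0.0954), which did not pass (adjusted p = 0.114, limma). The effects of the inhibitor at 10 h and at 4 h were compared on the deposited values within pairs, a different scale and fit. That difference was not called for any helicase gene, as given with the inhibitor results.

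Among the licensing factors only Cdc6, the ATPase that helps load the helicase, rose under both treatments. It had 8.30, 8.39, 8.37 and 8.11 with GSI at 10 h, against 7.43, 7.77 and 7.93 (lowest, median, highest) at 4 h, and 8.82, 8.30, 8.60 and 8.51 with DMSO at 10 h, against 7.44, 7.70 and 8.50 at 4 h. The GSI groups did not overlap, and the DMSO groups did, through 1 high array at 4 h. The differences were 0.55 (SE 0.128) with GSI and 0.77 (SE 0.188) with DMSO (limma, adjusted p = 0.00558 and 0.00839). Orc1, the largest subunit of the origin recognition complex, rose by 0.38 (SE 0.138) with GSI (adjusted p = 0.0475), and its difference of 0.48 (SE 0.178) with DMSO did not pass (adjusted p = 0.0519, limma). Orc6 differed by 0.10 with GSI and 0.19 with DMSO, with 95% intervals of -0.11 to 0.32 and -0.07 to 0.45. Cdt1, which brings the helicase to the origin and is destroyed once S phase starts, differed by 0.15 with GSI and -0.01 with DMSO, with intervals of -0.30 to 0.60 and -0.42 to 0.40. Neither gene passed under either treatment, and Cdt1 was the sole member with a value below 0 in a time comparison on the joint scale, in DMSO.

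Of the firing factors, Mcm10, Cdc45 and Gins1 rose under both treatments. Mcm10, which activates the loaded helicase, had 7.89, 7.92, 7.99 and 7.86 with GSI at 10 h, against 7.06, 7.20 and 7.36 (lowest, median, highest) at 4 h. Its groups did not overlap under either treatment, and it was higher by 0.71 (SE 0.0986) with GSI and 0.72 (SE 0.132) with DMSO (limma, adjusted p = 0.000305 and 0.00186). Gins1, a subunit of the GINS complex that holds the active helicase together, rose by 0.70 with GSI and 0.84 with DMSO. Cdc45, the other helicase cofactor, rose by 0.44 and 0.50. Gins3 rose by 0.50 (SE 0.154) with GSI, and its difference of 0.26 (SE 0.249) with DMSO did not pass, and Gins2 passed under neither treatment, at 0.62 (SE 0.232) with GSI and 0.38 (SE 0.174) with DMSO.

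Pola1, the catalytic subunit of polymerase alpha, was among the largest rises under both treatments. Its log2 levels were 8.89, 8.66, 8.80 and 9.01 with GSI at 10 h, against a lowest, median and highest of 7.59, 8.04 and 8.18 at 4 h. With DMSO they were 9.08, 8.85, 8.77 and 9.01 at 10 h, against 7.55, 8.03 and 8.30 at 4 h. No 10 h array fell within the 4 h range, and the difference was 0.86 (SE 0.121, 95% interval 0.60 to 1.12) with GSI and 0.94 (SE 0.148, 95% interval 0.62 to 1.26) with DMSO, or 1.81-fold and 1.92-fold (limma, adjusted p = 0.000341 and 0.000798). Prim2, the large primase subunit, also rose under both, by 0.65 with GSI and 0.59 with DMSO. Its partners Pola2, the accessory subunit of polymerase alpha, and Prim1, the catalytic primase, did not pass: Pola2 differed by 0.25 and 0.15, and Prim1 by 0.49 and 0.34, with GSI and with DMSO.

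Pcna, the ring that tethers polymerases to DNA, showed a small and even rise. It had 11.51, 11.58, 11.50 and 11.48 with GSI at 10 h, against 10.99, 11.19 and 11.21 (lowest, median, highest) at 4 h, and 11.56, 11.43, 11.54 and 11.44 with DMSO at 10 h, against 11.04, 11.22 and 11.32 at 4 h. The groups did not overlap under either treatment. The rise was 0.36 (SE 0.0523, 95% interval 0.24 to 0.47) with GSI and 0.29 (SE 0.0627, 95% interval 0.15 to 0.42) with DMSO (limma, adjusted p = 0.000436 and 0.00474). Fen1, the nuclease that trims the flaps of Okazaki fragments, had 7.80, 7.42, 7.47 and 7.91 with DMSO at 10 h, against 6.41, 6.55 and 6.88 at 4 h. These DMSO groups were apart by 1.04 (SE 0.144, 95% interval 0.73 to 1.35), a 2.05-fold rise (limma, adjusted p = 0.00039), and the GSI groups, also without overlap, by 0.77 (SE 0.144). A second, dimmer probe of Fen1 was higher by 0.96 with GSI and 1.10 with DMSO. Of the clamp loader, Rfc5 rose by 0.48 with GSI and 0.44 with DMSO, and Rfc3 rose by 0.42 with GSI, against 0.32 with DMSO, which did not pass (adjusted p = 0.115, limma). Lig1, the ligase that seals the fragments, differed by 0.20 and 0.10, within intervals of -0.12 to 0.52 and -0.21 to 0.42.

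Of the enzymes that make DNA precursors, Tyms and Rrm1 rose under both treatments. Tyms, the thymidylate synthase, had 8.73, 8.68, 8.49 and 8.12 with GSI at 10 h, against 7.06, 7.75 and 7.93 (lowest, median, highest) at 4 h. With DMSO it had 7.94, 8.40, 8.48 and 9.01 at 10 h, against 7.11, 7.95 and 8.01 at 4 h. The GSI groups did not overlap, and the lowest DMSO array at 10 h fell within the 4 h range. The rise was 0.89 (SE 0.191, 95% interval 0.47 to 1.30) with GSI and 0.70 (SE 0.215, 95% interval 0.24 to 1.16) with DMSO (limma, adjusted p = 0.00377 and 0.0247). Rrm1, the large subunit of ribonucleotide reductase, rose by 0.55 and 0.62. Its small subunit Rrm2 differed by 0.36 (SE 0.154) with GSI and 0.20 (SE 0.163) with DMSO and passed under neither (limma, adjusted p = 0.0845 and 0.353), and its second, dimmer probe differed by 0.60 and 0.42.

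Both large subunits of chromatin assembly factor 1, which deposits histones on new DNA, rose together. Chaf1a had 8.47, 8.52, 8.69 and 8.87 with GSI at 10 h, against 7.44, 7.91 and 8.08 (lowest, median, highest) at 4 h, and 8.62, 8.40, 8.80 and 8.79 with DMSO at 10 h, against 7.30, 7.85 and 8.04 at 4 h. All 10 h arrays were above all 4 h arrays under both treatments. The difference was 0.78 (SE 0.134, 95% interval 0.49 to 1.07) with GSI and 0.84 (SE 0.149, 95% interval 0.52 to 1.16) with DMSO (limma, adjusted p = 0.00106 and 0.00156). Chaf1b rose by 0.59 and 0.48. Slbp, which binds the stem-loop of replication-dependent histone mRNAs, rose by 0.34 (SE 0.108) with DMSO, and its difference with GSI, 0.25 (SE 0.107), did not pass (adjusted p = 0.0815, limma). Uhrf1, which brings the maintenance DNA methyltransferase to replicated DNA, differed by 0.36 with GSI and 0.38 with DMSO, with the widest interval of any member with GSI (-0.19 to 0.91).

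Ccne1, which encodes cyclin E1 and drives entry into S phase, had the largest rise of any member with GSI. It had 8.28, 8.23, 8.32 and 8.41 with GSI at 10 h, against 6.66, 7.32 and 7.51 (lowest, median, highest) at 4 h. With DMSO it had 8.32, 8.05, 8.30 and 8.25 at 10 h, against 6.77, 7.46 and 7.89 at 4 h. Neither treatment's groups overlapped, and Ccne1 was higher by 1.04 (SE 0.149, 95% interval 0.72 to 1.36), or 2.06-fold, with GSI and by 0.79 (SE 0.191, 95% interval 0.38 to 1.21), or 1.73-fold, with DMSO (limma, adjusted p = 0.00037 and 0.00787). E2f1, the transcription factor that activates many genes of this set, had 6.52, 6.65, 6.70 and 7.01 with GSI at 10 h, against 6.03, 6.22 and 6.43 at 4 h. It rose by 0.46 (SE 0.123) with GSI and 0.64 (SE 0.137) with DMSO, without overlap under either treatment.

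**Figure D2:**
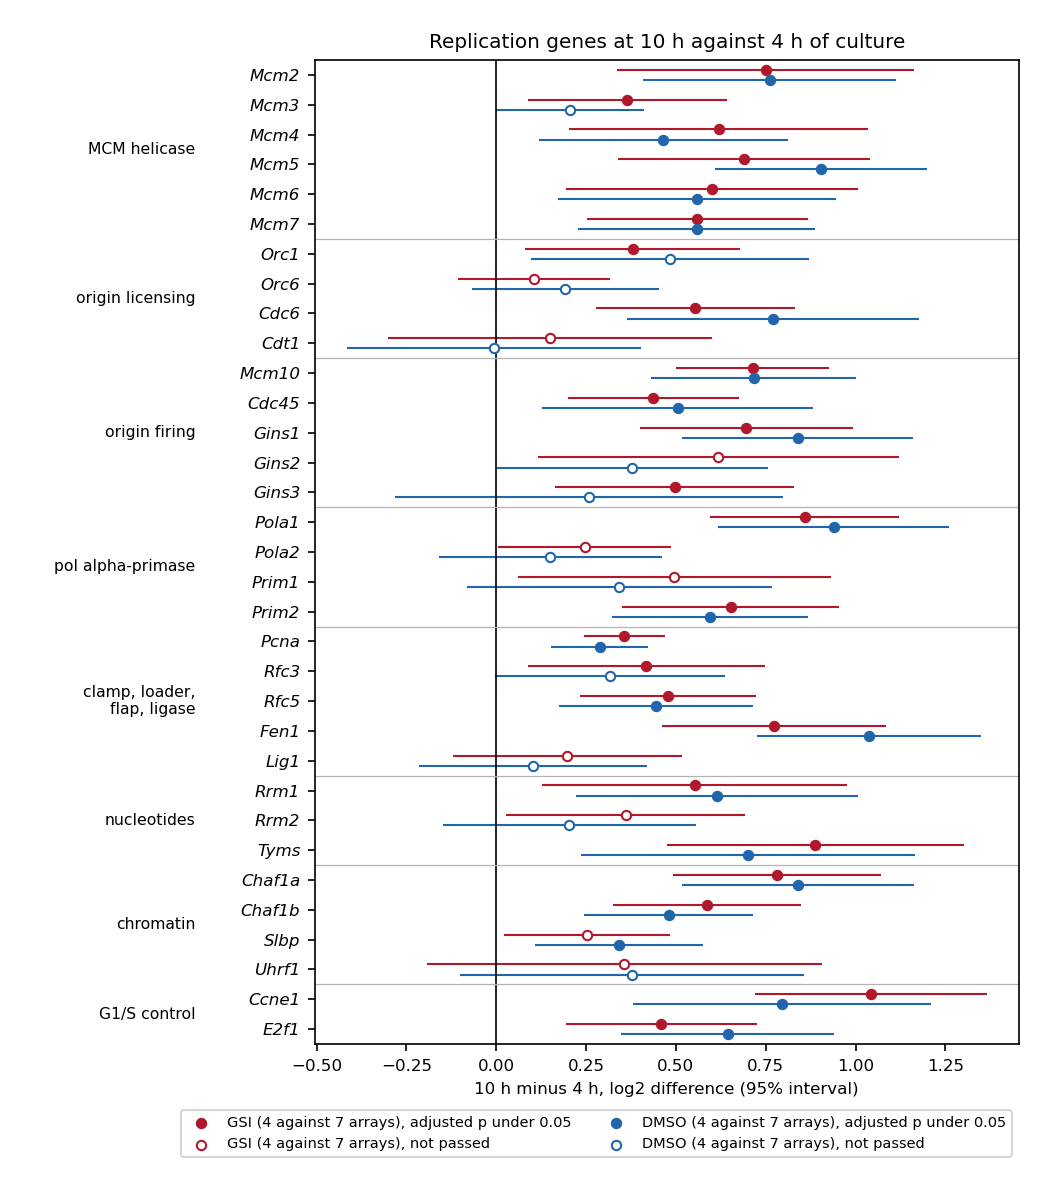
Log2 difference of each replication gene at 10 h against 4 h after joint quantile normalization, with 95% intervals, for GSI (4 against 7 arrays) and DMSO (4 against 7 arrays). Filled points passed an adjusted p of 0.05 (24 genes with GSI, 21 with DMSO), and on this scale the points lie right of 0 except Cdt1 in DMSO, while on the deposited scale 12 genes with GSI and 16 with DMSO lie below 0.

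In all, 20 members rose under both treatments, 4 passed with GSI and not with DMSO (Mcm3, Orc1, Gins3 and Rfc3), Slbp passed with DMSO and not with GSI, and 8 passed under neither (Orc6, Cdt1, Gins2, Pola2, Prim1, Lig1, Rrm2 and Uhrf1). The share of all genes that rose under both treatments was not counted. In the single comparisons 19.1% of all genes rose with GSI and 18.7% with DMSO. The time comparisons with GSI and with DMSO share no array, but their arrays come from the same pairs of cultures. Each 10 h description code was also set against each 4 h code within a treatment, with no test. In these 12 comparisons 29 to 33 of the 33 members were higher at 10 h, and the median member was higher by 0.35 to 0.68, where 50.8% to 54.8% of all genes were higher, with medians over all genes of 0.0064 to 0.053. With the description code as a random block, 18 members rose with GSI and 18 with DMSO, where 15.3% and 15.2% of all genes did in the same fits.

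Genes outside the set but of the same machinery moved the same way in the time comparisons. Of 37 measured further replication genes (polymerases delta and epsilon, other origin and loader subunits, fork proteins), 23 rose and 1 fell with GSI, and 19 rose and 1 fell with DMSO. Their median differences were 0.54 and 0.51. Of all genes, 19.1% rose with GSI and 18.7% with DMSO. With GSI the largest rises were Pold2 (1.14), a subunit of polymerase delta, Dna2 (1.12), a nuclease and helicase of flap processing, and Pole2 (1.07), a subunit of polymerase epsilon. With DMSO they were Gmnn (1.05), which encodes the Cdt1 inhibitor geminin, Dscc1 (1.04), a subunit of an alternative clamp loader, and Recql4 (1.02), a helicase of origin firing. The 1 gene that fell was Pold4, the smallest subunit of polymerase delta, by 0.99 with GSI and by 0.65 with DMSO. Of 26 measured other S-phase genes, 14 rose and 1 fell (E2f7, a repressor of E2F targets, by 0.40) with GSI, and 12 rose with DMSO, with medians of 0.40 and 0.37. Exo1, an exonuclease of mismatch repair, rose by 1.09 and 1.08, and Hells, a chromatin remodeller, by 0.96 and 0.92.

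Of 23 measured mitotic genes, 6 rose and 1 fell (Prc1, by 0.32) with GSI and 9 rose with DMSO, with medians of 0.19 and 0.16. Beside these and the following counts, 19.1% of all genes rose and 17% fell with GSI. With DMSO 18.7% of all genes rose and 15.2% fell. The largest was Ttk, a kinase of the spindle checkpoint, at 0.93 with GSI and 0.89 with DMSO. Of 15 cell cycle inhibitors and G1 regulators, 3 rose and 3 fell with GSI, and 2 rose and 2 fell with DMSO. Cdkn1a, which encodes the cyclin-dependent kinase inhibitor p21, averaged 8.12 ± 0.42 with GSI at 10 h and 10.84 ± 0.46 with GSI at 4 h (SD, n = 4 and n = 7), a difference of -2.71 (SE 0.244). With DMSO its difference was -2.18 (SE 0.359). Ccnd1, encoding cyclin D1, fell by 1.18 with GSI and by 1.50 with DMSO, and Cdkn2c, an inhibitor of the kinases Cdk4 and Cdk6, fell by 0.96 with GSI. Cdk6 rose by 1.09 and 1.26, and Rbl1, a relative of the retinoblastoma protein, rose by 0.95 and 1.01.

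Markers of other cell types, and of HSCs themselves, also differed between the times. For the counts below, the shares of all genes were 19.1% rising and 17% falling with GSI. They were 18.7% rising and 15.2% falling with DMSO. Of 10 endothelial markers, 9 fell with GSI and 9 with DMSO, with median differences of -2.16 and -1.99, and the mean log2 level of the list ran between 6.42 and 8.03 over the 10 h arrays and between 7.69 and 10.2 over the 4 h arrays. Of 12 measured hepatocyte markers, 6 fell with GSI and 9 with DMSO (medians -2.25 and -2.23), with mean levels of 4.73 to 6.56 at 10 h and 5.67 to 9.11 at 4 h. Of 10 macrophage markers, 5 and 3 fell (medians -1.02 and -0.57), and of 18 markers of OP9-type stroma, 12 and 4 fell (medians -0.99 and -0.49). Their mean levels were 5.50 to 6.45 at 10 h and 6.13 to 7.66 at 4 h for macrophages, and 5.11 to 6.57 at 10 h and 5.86 to 7.33 at 4 h for stroma. Of 8 measured erythroid markers, 5 rose with GSI and 4 with DMSO (medians 0.85 and 0.82), with mean levels of 7.57 to 8.51 at 10 h and 6.37 to 8.63 at 4 h. Of 10 measured HSC markers, 1 rose and 2 fell with GSI and 2 rose and 3 fell with DMSO (medians -0.29 and -0.47). The part of the cell types of these lists in the rise of replication genes was not tested. Replication gene means were 8.72 to 8.85 over the 10 h arrays and 7.86 to 8.50 over the 4 h arrays.

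**Figure D3:**
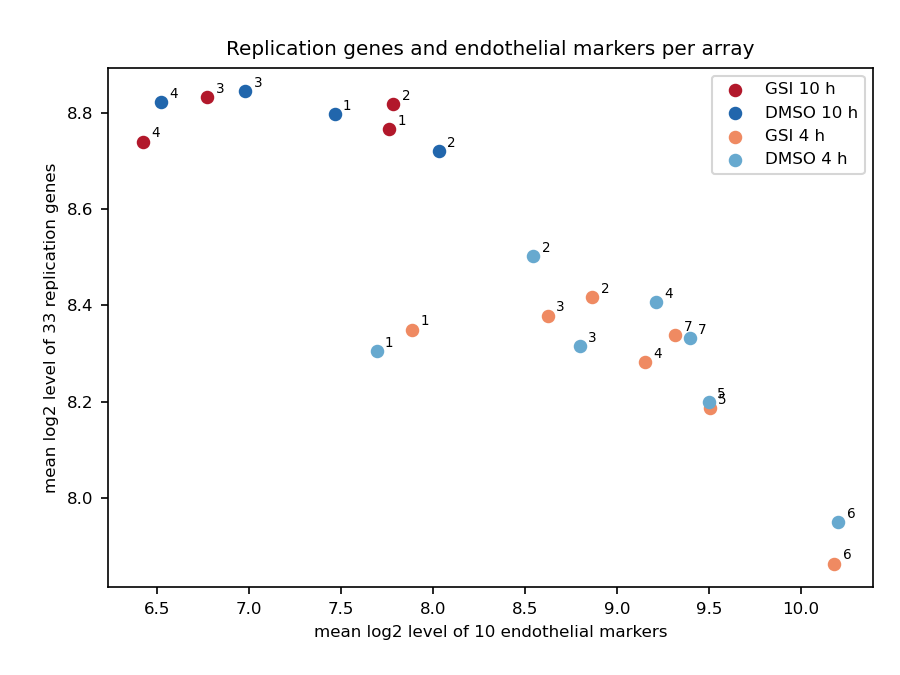
Mean log2 level of the 33 replication genes (vertical axis) against the mean log2 level of 10 endothelial markers (horizontal axis) on each of the 22 arrays after joint quantile normalization, with pair numbers beside the points. Arrays at 10 h lie at the upper left, pair 6 at 4 h at the lower right, and the other 4 h arrays between them in replication gene level.

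Cultures of the same time differed from each other in these genes. At 4 h, pair 6 was the lowest of 7 pairs for 24 of the 33 members, where 23.3% of all genes were lowest in it, and pair 2 was the highest for 17, where 11.6% of all genes were highest in it. In pair 6 the median member was -0.37 from the mean of the other pairs, and the lowest were Uhrf1 (-1.11), Rrm1 (-1.001), Prim1 (-0.96) and Mcm6 (-0.96). Uhrf1 had 9.45, 9.32, 9.25, 8.85, 8.49, 7.88 and 9.07 in GSI pairs 1 to 7 at 4 h and 9.23, 9.22, 8.84, 8.84, 8.81, 7.91 and 8.78 in their DMSO partners. The drop in pair 6 was thus seen in both of its arrays. Slbp, Orc6, Orc1 and Pola2 were not low there, at 0.11, 0.20, 0.21 and 0.24 from the mean of the other pairs. Pair 6 also had the highest endothelial means, 10.18 with GSI and 10.2 with DMSO, whose part was not tested. Without pair 6, the same number of members rose at 10 h (24 with GSI and 21 with DMSO), where 19.2% and 17.8% of all genes did, and the median member was higher by 0.46 under each treatment. With GSI the differences without it were 0.94 for Ccne1, 0.79 for Tyms and Pola1, 0.71 for Chaf1a, 0.61 for Mcm2 and 0.33 for Pcna. With DMSO they were 1.03 for Fen1, 0.87 for Pola1, 0.83 for Mcm5, 0.75 for Chaf1a, 0.68 for Ccne1, 0.66 for Mcm2 and 0.26 for Pcna. All of these passed the test without pair 6 as with it, and each was smaller than with it. At 10 h no pair stood apart in this way over the members, with median deviations of -0.02 to 0.06. Single members did, as Cdt1 (-0.93) and Gins2 (-0.64) were low in pair 4 at 10 h.

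**Figure D4:**
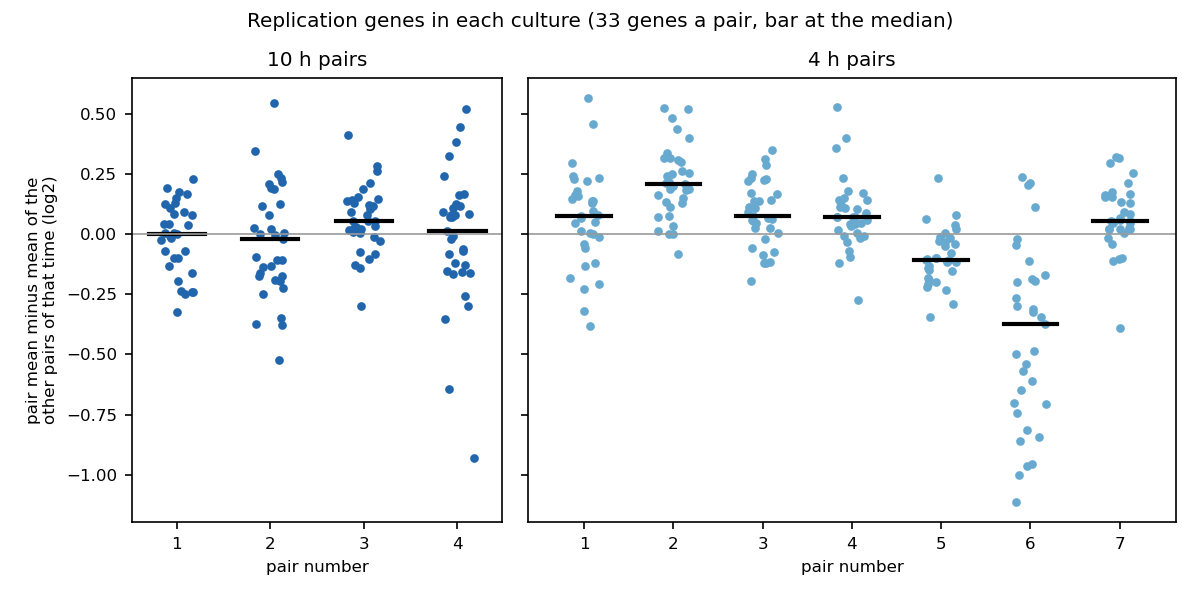
Deviation of each replication gene's pair mean (GSI and DMSO arrays averaged, joint scale) from the mean of the other pairs of that time, in log2 units, for the 4 pairs at 10 h and the 7 pairs at 4 h, with a bar at the median over 33 genes. Pair 6 at 4 h has the lowest median, -0.37, and pair 2 at 4 h the highest, 0.21.

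Members varied unequally within groups. The median SD over the 33 members was 0.15 with GSI at 10 h, 0.19 with DMSO at 10 h, 0.24 with GSI at 4 h and 0.25 with DMSO at 4 h, against 0.17, 0.22, 0.19 and 0.18 over all genes and 0.19, 0.26, 0.25 and 0.25 over the brighter genes (those above the median gene, as all 33 members were). Pcna had the smallest SD in 3 of the 4 groups and Mcm10 in DMSO at 4 h, while Cdt1 had the largest in both 10 h groups, 0.51 with GSI and 0.49 with DMSO.

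With gamma-secretase inhibited for 10 h, the difference from DMSO passed the threshold for no replication gene. None of 33 members was called, where 0.667% of all genes were, and the lowest adjusted p was 0.191 (limma). At an unadjusted p under 0.05 there were 4 members (Mcm3, Gins2, Mcm4 and Lig1), where 14.1% of all genes had such a p. The median member differed by 0.07, against -0.01 over all genes and 0.05 over the 11090 genes brighter than the median gene, which include all 33 members. Under cyclic loess it differed by -0.0033, so its direction depends on the scaling. Values were above 0 for 21 members, where 46.2% of all genes and 62.2% of the brighter genes had such values, and below 0 for 12 (15 above and 18 below under cyclic loess), within a range of -0.21 (Cdc6) to 0.37 (Gins2). The 95% intervals of all 33 lay between -0.48 and 0.69, with a median SE of 0.1. In 8 members GSI was higher in all 4 pairs (Mcm3, Mcm4, Mcm6, Cdt1, Gins2, Gins3, Chaf1b and Ccne1) and in 2 it was lower in all 4 (Mcm5 and E2f1), where 16.7% of all genes went 1 way in all pairs.

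Mcm3, a helicase subunit, had deposited log2 levels of 9.19, 9.60, 9.69 and 9.33 with GSI at 10 h, against 9.03, 9.38, 9.30 and 9.11 with DMSO, in pair order. GSI was the higher in each pair while the groups overlapped, and the difference was 0.25 (SE 0.0843, 95% interval 0.07 to 0.43) (limma, adjusted p = 0.191). Gins2, of the GINS complex, had 9.10, 9.26, 9.36 and 8.55 with GSI, against 8.88, 8.84, 8.99 and 8.10 with DMSO. Pair 4 was low in both arrays, and the paired difference was 0.37 (SE 0.125, 95% interval 0.10 to 0.63), with an adjusted p of 0.191 (limma). Mcm4 had 9.94, 9.84, 9.91 and 9.82 with GSI, against 9.79, 9.76, 9.78 and 9.48 with DMSO. It was the 1 member whose GSI arrays all lay above all DMSO arrays, as did 1.41% of all genes, at 0.18 (SE 0.0692, 95% interval 0.03 to 0.32) (limma, adjusted p = 0.253). Pcna had 11.37, 11.46, 11.42 and 11.40 with GSI, against 11.44, 11.30, 11.41 and 11.26 with DMSO, and Mcm2 had 8.89, 8.93, 9.06 and 8.56 against 8.70, 8.93, 8.91 and 8.58. Their differences were 0.06 (95% interval -0.04 to 0.16) and 0.09 (95% interval -0.10 to 0.27), and -0.0025 and -0.0033 under cyclic loess. Ccne1 had 7.97, 7.94, 8.10 and 8.14 with GSI, against 7.95, 7.74, 8.03 and 7.79 with DMSO, a difference of 0.16 (95% interval -0.07 to 0.39). Tyms showed the widest disagreement between pairs, with differences of 0.90, 0.30, 0.07 and -0.75 in pairs 1 to 4.

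**Figure D5:**
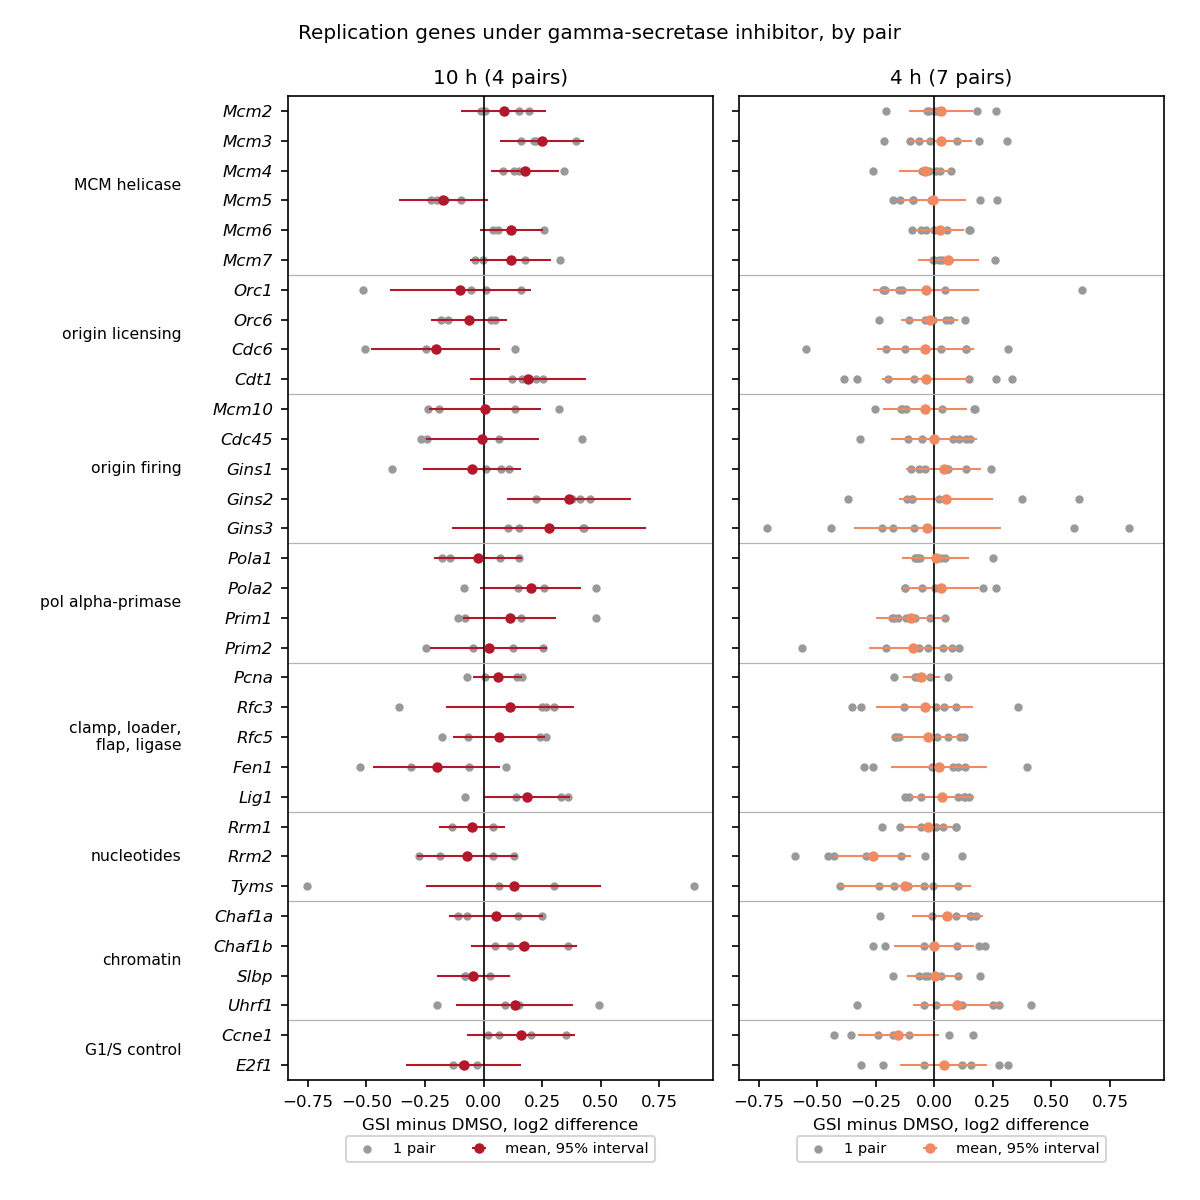
GSI minus DMSO log2 difference of each replication gene on the deposited values, at 10 h (left, 4 pairs) and 4 h (right, 7 pairs), with each pair as a grey point and the mean with its 95% interval in colour. Most intervals include 0 at both times, and no gene passed the adjusted threshold at either.

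At 4 h of GSI no member was called either, where Hes1 was the 1 gene called of all genes (0.00451%). The lowest adjusted p among members was 0.999, and 1 member had an unadjusted p under 0.05, where 4.21% of all genes did. The median member differed by -0.01, against 0.01 over all genes, in a range of -0.26 (Rrm2) to 0.10 (Uhrf1), and all 95% intervals lay between -0.42 and 0.29. Rrm2, the small subunit of ribonucleotide reductase, had a lowest, median and highest of 9.71, 10.24 and 10.58 with GSI, against 9.86, 10.48 and 10.91 with DMSO. The pairs differed by 0.12, -0.43, -0.45, -0.59, -0.29, -0.14 and -0.04, so GSI was lower in 6 of 7. The mean difference was -0.26 (SE 0.0758, 95% interval -0.42 to -0.10), with an unadjusted p of 0.00334 and an adjusted p of 0.999 in limma's fit to all genes. A second, dimmer Rrm2 probe differed by -0.07, and pairs 2 and 3, fitted alone, gave -0.44 (adjusted p = 0.0135, limma), the sole fit in which a member was called for GSI. That fit of pairs 2 and 3 called many more of all genes than the 1 called with all 7 pairs, as counted further on. Ccne1 had 6.81, 7.57 and 7.70 with GSI, against 6.91, 7.65 and 8.05 with DMSO, and differed by -0.15 (SE 0.0817, 95% interval -0.33 to 0.02). Pcna had 11.08, 11.25 and 11.27 with GSI, against 11.11, 11.32 and 11.43 with DMSO, and differed by -0.06 (SE 0.0373, 95% interval -0.13 to 0.02). Mcm2 had 7.70, 8.67 and 8.79 with GSI, against 7.91, 8.57 and 8.81 with DMSO, a difference of 0.03 (95% interval -0.11 to 0.17). The ranges of the groups overlapped for all 4 genes.

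Averaged over both times, no member was called for the inhibitor (0 of 33, where 0.32% of all genes were called). An unadjusted p under 0.05 (limma) was found for 3 members, where 12% of all genes had such a p. The smallest p-values were those of Rrm2, at -0.17 (SE 0.0629, 95% interval -0.30 to -0.03), Gins2, at 0.21 (SE 0.0782, 95% interval 0.04 to 0.37), and Mcm3, at 0.14 (SE 0.0528, 95% interval 0.03 to 0.25) (limma, adjusted p of 0.301, 0.303 and 0.309). Pcna, Mcm2 and Ccne1 averaged 0.00, 0.06 and 0.00. The difference between the effects at 10 h and at 4 h was tested directly and was called for no member, where 0.018% of all genes were called, and 2 members had an unadjusted p under 0.05, where 9.36% of all genes did. It was 0.22 (SE 0.0867, 95% interval 0.03 to 0.40) for Mcm4, 0.31 (SE 0.135, 95% interval 0.03 to 0.60) for Ccne1 and 0.22 (SE 0.106, 95% interval -0.00 to 0.44) for Mcm3 (limma, adjusted p of 0.467, 0.493 and 0.541). For Pcna and Mcm2 it was 0.12 and 0.06. Ccne1 thus had values above 0 in all 4 pairs at 10 h and below 0 in 5 of 7 pairs at 4 h, without passing in either comparison or in the difference.

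None of the genes of the other cell cycle lists was called for GSI at either time. At 10 h, 30 of 37 further replication genes had values above 0 (median 0.17; 11 had an unadjusted p under 0.05) and 23 of 26 other S-phase genes did (median 0.14; 6 unadjusted), beside 46.2% of all genes and 62.2% of the brighter genes. Of 23 mitotic genes 13 did (median 0.02; 7 unadjusted). At 4 h those medians were -0.02, 0.00 and -0.04. Of all genes, 14.1% had an unadjusted p under 0.05 at 10 h (limma). The counts and medians of these lists are on the deposited values. After joint quantile normalization, the further replication genes had a mean level of 8.54 with GSI and 8.48 with DMSO at 10 h. The other S-phase genes had 8.68 and 8.62, and the mitotic genes 9.17 and 9.21. Markers of HSCs and of stroma also differed with GSI at 10 h, where 0.667% of all genes were called. Of 10 measured HSC markers, 9 had values above 0 (median 0.40), and Hoxa9 (1.02), Mecom (0.82) and Hlf (0.73), transcription factors of HSCs, rose. Of 18 stroma markers, 15 had values below 0 (median -0.27), and Cd248, a membrane protein of stromal cells, fell by 1.33. Their part in the values of the replication genes was not tested. A missed threshold does not show that the inhibitor left these genes as they were: the intervals allow changes of the sizes given for each gene.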

How the data were processed

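The deposited table holds log2 values of 41345 probes on 22 arrays. The submitters' processing notes name RMA and Partek 6.6; the array type, probe set version and genome build are not given in the sources used here. GEO's platform annotation gave 1 gene symbol to 23521 probes, several to 1814 and none to 16010. Each of 22180 genes was read by 1 such probe, the brightest on average where there were several.

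GSI was compared with DMSO in limma 3.58.1 (R 4.3.3) on the deposited log2 values of all 22 arrays, with the pair as a fixed block. The design text states the pairing. Deviations from the group means correlated within pairs at 0.20 to 0.41 at 10 h and 0.23 to 0.87 at 4 h. The GSI array correlated best with its own DMSO partner in 3 of 4 pairs at 10 h and in 7 of 7 at 4 h. The array medians differ between the times, so 10 h and 4 h were compared within each treatment (11 arrays) after quantile normalization of all probes. Tests were two-sided, with variance trend and Benjamini-Hochberg adjustment over all genes, and a gene was called at an adjusted p under 0.05. The fits were checked on simulated data, with changes larger than any member's difference and no level shift between the times. That check thus does not cover small effects or the shift in array medians. The number of arrays limits the precision of every value.

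The member genes and the other gene lists were chosen with earlier results of these data known. Genes given with all values were the 3 members with the smallest p for each inhibitor comparison, and the 4 largest non-overlapping rises or falls for each time comparison, plus Pcna, Mcm2 and Ccne1. Cdc6, Mcm10, E2f1, Tyms in DMSO and Uhrf1 were added after their values were seen. Alternatives were other scalings, no pair block, a filter on low values, the mean of a gene's probes, the code as a block and leaving out each replicate. Promoter windows are RefSeq's, on GRCm38.p6; 30 of the 35 members matched by symbol.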

Additional observations from a re-analysis of the deposited data

Results flagged for a closer look

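Single arrays lay far from the rest of their group (Dixon's criterion) in 17 of 132 sets of 1 member gene in 1 group (12.9%), covering 16 genes, on the deposited log2 scale. Chance sets apart about 1 in 20. In 13 of the 17 the array was 1 of the pair numbered 6 at 4 h, and each time it was the low one. With GSI these were Ccne1 at 6.81, Chaf1a at 7.63, Lig1 at 8.68, Mcm2 at 7.70, Pcna at 11.08, Pola1 at 7.77 and Prim2 at 6.97. With DMSO they were Chaf1a at 7.47, Mcm5 at 7.90, Mcm6 at 9.18, Mcm7 at 8.21, Rrm1 at 9.16 and Uhrf1 at 8.12. The endothelial markers were highest in that pair, at means of 10.18 with GSI and 10.2 with DMSO on the joint scale, and their part in these low values was not tested. The other 4 were Orc1 in GSI at 4 h, low at 6.94 in pair 1, and 3 DMSO arrays at 10 h: Chaf1b high at 6.94 in pair 3, and Gins2 at 8.10 and Mcm4 at 9.48, both low in pair 4.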

How the results depend on the processing

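Of 683 alternative values, 148 of those for counts and medians and 503 of those for single genes were classed as unchanged. For a count this meant equal to the main count, also 0 against 0, or within a fixed ratio of it. A median had to stay within the spread between replicates. A single gene had to keep its direction and its side of the threshold. The deposited scale called 5 members with GSI and 4 with DMSO for 10 h against 4 h, with median differences of 0.084 and 0.00043. Of the genes called in either direction, 3.16% with GSI and 3.48% with DMSO were higher there. That part of the called genes was 52.8% and 55.2% on the joint scale and 74% and 74.7% under median centring. On the deposited scale 470 of 22180 genes were called higher and 14425 lower with GSI, and 464 and 12884 with DMSO. On that scale Tyms (0.43) and Mcm2 (0.34) with GSI, and Chaf1a (0.33), Pcna (0.06), Mcm2 (0.28) and Ccne1 (0.25) with DMSO, no longer passed; the median of all genes was -0.42 with GSI and -0.41 with DMSO there. Median centring called 31 and 27 members, where 37.6% and 36.9% of all genes were called higher, and cyclic loess 21 and 20, where 16.3% and 15.8% were. Leaving out 1 array gave 18 to 24 members (medians 0.46 to 0.59) with GSI and 15 to 21 (0.46 to 0.53) with DMSO. With all arrays 19.1% of all genes were called higher with GSI and 18.7% with DMSO. The range of these shares over the fits without 1 array is not given here, so the member counts are not weighed against it. Without the replicate block, 0 members were called in each inhibitor comparison, as with it, so the pairing changed no member's call, but at 10 h 0 genes of 22180 were called in place of 148. The count of all genes at 10 h was also 37 after joint quantile normalization, 63 under cyclic loess, 285 of the brighter genes, 2 with that time fitted alone, 0 and 15 within the codes, and 27 to 228 without 1 pair. At 4 h it was 148 within pairs 2 and 3, where 1 member (Rrm2) was called, against 1 otherwise, and 0 to 3 in the other fits. For the mean effect, 71 genes became 2 without the block, 43 after quantile normalization, 162 of the brighter genes and 20 to 136 without 1 pair, and for the difference of effects 4 became 0 to 7. Direction turned for small inhibitor differences, with no cause tested: the median at 10 h was -0.0033 under cyclic loess. Joint quantile normalization and cyclic loess gave -0.0085 and -0.023 for the mean effect on Pcna, -0.046 and -0.049 for Ccne1, and -0.011 and -0.023 for the difference of effects on Mcm2. Cyclic loess gave -0.0025 for Pcna and -0.0033 for Mcm2 at 10 h, and the third code at 4 h gave -0.013 for Mcm2. Leaving out 1 pair, the mean effect ranged from -0.015 to 0.024 for Pcna and from -0.030 to 0.026 for Ccne1, and the 4 h effect on Mcm2 from -0.011 to 0.067. The 4 and 7 arrays of a group limit what can be called.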

Other observations

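The E2F-type words were also counted over all measured genes with a promoter window, as a description with no test. With the member genes left out, 26.6% of 542 genes with such a word were called higher at 10 h than at 4 h with GSI, against 19.1% of 16436 genes with a window and no word. With DMSO the shares were 24.4% and 18.6%. Among the replication genes themselves, 9 of the 12 with a word rose with GSI, against 12 of 17 without one, and with DMSO 5 of 12 rose, against 13 of 17.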
